A study of Mus musculus with 6 samples.

Results

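The 9 transcription factors that build the skeletal muscle lineage were examined in muscle stem cells (MuSCs, also called satellite cells) from injured muscle of mice given resolvin D1 (RvD1) or vehicle. They are Pax7 and Pax3, the myogenic basic helix-loop-helix (bHLH) factors Myf5, Myod1, Myog, and Myf6, and the MADS-box factors Mef2a, Mef2c, and Mef2d. They were taken by gene name from the deposited tables, in which each name matched 1 of 49671 genes, and all 9 had enough counts to be tested. RvD1 is a lipid mediator of the resolution of inflammation that is made from docosahexaenoic acid, and the comparison asked whether systemic RvD1 altered the transcriptome of MuSCs after injury. All mice were female C57BL/6, aged 4 to 6 months, and received 50 μL of 1.2% BaCl2, a salt that kills myofibers, in each tibialis anterior (TA) muscle. The 3 treated mice received 100 ng of RvD1 daily by IP injection and the 3 control mice received 0.1% ethanol. At day 3 both TA muscles of a mouse were pooled, and cells that carried β1-integrin with CXCR4 but lacked CD45, CD11b, Sca-1, and Ter119 were sorted, so that each mouse gave 1 RNA-Seq library. The gate has no marker that parts MuSCs from their activated progeny, and no library of uninjured muscle was analysed here. In such bulk RNA, fewer cells of a type and less RNA per cell cannot be told apart.

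These factors act in a known order. Pax7 and its paralog Pax3 mark the stem cell state and act upstream of Myf5 and Myod1, which commit cells to the muscle lineage and mark activated, dividing myoblasts. Myog drives the exit from division into terminal differentiation, and Myf6 (also called MRF4) is most abundant in mature fibers. The myogenic bHLH factors pair with E proteins and bind the E-box, and Mef2 proteins bind A/T-rich sites in the same muscle genes and act as their cofactors.

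The Myog promoter is shown here because Myog was the most abundant of the 9 transcripts and because its promoter is a classical meeting point of bHLH and Mef2 factors. The sequence is the 250 bases before the RefSeq start of Myog on GRCm38.p6 (plus strand, chr1:134289754-134290003), and its last bases already lie inside the GENCODE transcript. Capitals mark matches to the E-box (CANNTG) and to the MEF3 motif of muscle promoters (searched as TCAGGTT), read on both strands.

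Myog promoter: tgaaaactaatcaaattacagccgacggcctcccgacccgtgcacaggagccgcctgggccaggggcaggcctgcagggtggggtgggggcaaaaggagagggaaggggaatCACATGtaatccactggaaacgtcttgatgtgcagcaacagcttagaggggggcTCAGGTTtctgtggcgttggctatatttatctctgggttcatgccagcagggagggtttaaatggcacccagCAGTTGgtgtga

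The Myog window held 2 E-boxes, CACATG from 138 to 133 bases before the start and CAGTTG from 12 to 7 bases before it. It held 1 MEF3 match, TCAGGTT, from 84 to 78 bases before the start, and no exact match to the MEF2 consensus. That consensus was searched as YTAWWWWTAR, where Y is C or T, W is A or T, and R is A or G. The stretch ctatatttat in the window differs from it at the last base only and is not in capitals. An exact search misses sites that depart from the consensus, so it cannot show that the window lacks a MEF2 site. Among 32851 RefSeq promoter windows of the same length, 66.2% held an E-box, 3.49% a MEF3 match, and 2.92% a MEF2 consensus match. RefSeq windows were at hand for 6 of the 9 genes. The windows of Pax7, Myf5, Mef2a, and Mef2d held none of these motifs, and of 3 windows of Mef2c, 1 held 2 E-boxes and a MEF3 match and another held 1 E-box. Promoters of Pax3, Myod1, and Myf6 were not analysed here.

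Levels are given in TPM, a share of all transcripts that the authors scaled for transcript length, so that genes can be compared with each other. In all 6 libraries the order was headed by Myog and ended with Pax3 and Myf6. Mean levels over the 6 libraries were 977 TPM for Myog, 356 for Myod1, 244 for Mef2a, 151 for Myf5, 50.5 for Mef2d, 17.7 for Mef2c, 5.41 for Pax7, 1.17 for Pax3, and 1.00 for Myf6. Of the 8 pairs of neighbors in this order, 6 kept it in all 6 libraries. Myod1 exceeded Mef2a in 5 of 6 libraries, by a mean log2 difference in TPM of 0.52 ± 0.31 (SD, n = 6), and RvD1 replicate 1 had them the other way round. Pax3 and Myf6 differed by 0.19 ± 0.45 (SD, n = 6) on the same scale and were reversed in vehicle replicates 2 and 3. In the deposited FPKM, another measure per length, 6 pairs of neighbors also kept their order in all 6 libraries. Within a library FPKM and TPM differ only by a common factor, so this is no separate check.

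**Figure D1:**
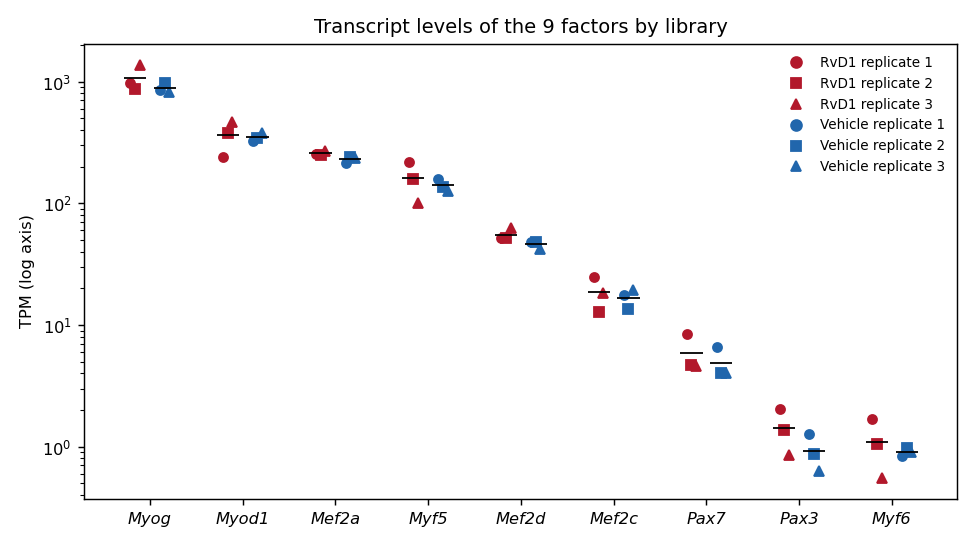
TPM (log axis) of the 9 factors in each of the 6 libraries, with RvD1 in red, vehicle in blue, a symbol for each replicate number, and a bar at the group mean. Myog sits between 818 and 1378 TPM and Myf6 between 0.55 and 1.68 TPM, and for most genes the RvD1 points lie farther apart than the vehicle points.

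RvD1 replicate 1 stood apart from the other libraries for several of the factors. It had the highest Pax7, Pax3, Myf5, Myf6, and Mef2c and the lowest Myod1. In this library the summed TPM of 15 MuSC markers was 3180, against 2178 to 2640 in the other 5 libraries, and that of 10 proliferation markers was 1633, against 2069 to 2344. For 10 markers of fibro-adipogenic progenitors, stromal cells of muscle, the sum was 2292 against 1054 to 1513, and for 9 mural and glial markers it was 105 against 49.0 to 73.3. Col3a1 (806 TPM), Col1a2 (585), Dcn (450), and Col1a1 (347) made up most of the sum of 2292. These, Dpt, and Lum were highest in this library, while Pdgfra, Ly6a, Cd248, and Pi16 lay within the range of the other libraries. Pdgfra was at 3.48 TPM and Ly6a at 25.4 TPM. The part of all these markers in the values of the factors was not tested.

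The stem cell factors were scarce. Pax7 (ENSMUSG00000028736, GRCm38 chromosome 4, 139737062 to 139833528, minus strand) was at 8.5, 4.68, and 4.58 TPM in RvD1 replicates 1, 2, and 3. In vehicle replicates 1, 2, and 3 it was at 6.63, 4.03, and 4.03 TPM. Replicate 1 was the highest of its group in both, and the groups overlapped. Pax7 ranked 9067 to 10314 among the 20459 to 22105 genes above 0 TPM in a library, near the middle of the expressed genes, although 256 to 623 expected counts stood behind each value. Its log2 fold change, RvD1 over vehicle, was 0.19 (SE 0.28, 95% interval −0.45 to 0.83), with an unadjusted p of 0.513 and an adjusted p of 0.971 by the quasi-likelihood test of edgeR. Without RvD1 replicate 1 it was −0.16.

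Pax3 (ENSMUSG00000004872, chromosome 1, 78101267 to 78197134, minus strand) had 28 to 96 expected counts per library. It was at 2.02, 1.36, and 0.85 TPM with RvD1 and at 1.27, 0.87, and 0.63 TPM with vehicle. The highest library was again RvD1 replicate 1 and the groups overlapped. Pax3 had the largest fold change of the 9 genes, a log2 fold change of 0.51 with the wide interval of −0.37 to 1.40 (SE 0.39, edgeR unadjusted p = 0.218, adjusted p = 0.971), and 0.19 without RvD1 replicate 1. Pax7 made up 77.5% to 86.5% of the TPM of the pair.

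The commitment factors were abundant in every library. Myf5 (ENSMUSG00000000435, chromosome 10, 107482908 to 107486134, minus strand) was at 220.4, 159, and 101 TPM in RvD1 replicates 1 to 3 and at 159.5, 137, and 127 TPM in vehicle replicates 1 to 3. The RvD1 libraries included both the highest and the lowest value. Between groups the log2 fold change was 0.10 (SE 0.23, 95% interval −0.42 to 0.63; edgeR adjusted p = 0.977), and −0.17 without RvD1 replicate 1. With RvD1 replicate 3 left out it was 0.35, which had an unadjusted p of 0.0361 and an adjusted p of 0.788 in edgeR.

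Myod1 (ENSMUSG00000009471, chromosome 7, 46376474 to 46379099, plus strand) was at 239, 382, and 470 TPM in RvD1 replicates 1 to 3 and at 325, 343, and 376 TPM in vehicle replicates 1 to 3. Here too RvD1 held both extremes, and replicate 1, the highest RvD1 library for Myf5, was the lowest for Myod1. RvD1 over vehicle gave a log2 fold change of −0.02 (SE 0.22, 95% interval −0.51 to 0.47; edgeR adjusted p = 0.995). It was 0.22 without RvD1 replicate 1 but −0.23 with RvD1 replicate 3 left out, so its direction depended on single libraries.

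The ratio of Myf5 to Myod1 in TPM was spread in the same way. It was 0.922, 0.417, and 0.215 in RvD1 replicates 1, 2, and 3, a 4.28-fold range. In vehicle replicates 1, 2, and 3 it was 0.490, 0.398, and 0.338, a 1.45-fold range that lay inside that of RvD1. The mean log2 ratio differed between groups by 0.11, less than the SD of 0.27 among vehicle libraries and of 1.05 among RvD1 libraries. Myod1 over Pax7 lay between 28.1 and 102.6 in RvD1 libraries and between 49.1 and 93.3 in vehicle libraries.

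**Figure D2:**
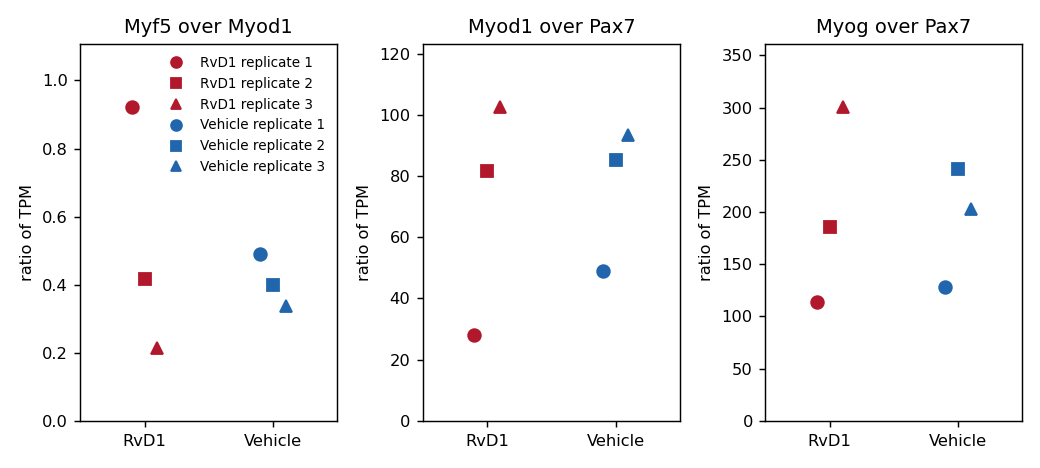
Ratios of TPM (linear axes from 0) of Myf5 to Myod1, Myod1 to Pax7, and Myog to Pax7 in each library, RvD1 in red and vehicle in blue. The ratio of Myf5 to Myod1 runs from 0.215 to 0.922 in the RvD1 libraries and from 0.338 to 0.490 in the vehicle libraries, and no ratio parts the groups.

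Among the differentiation factors, Myog and Myf6 lay at opposite ends of the order. Myog (ENSMUSG00000026459, chromosome 1, 134289989 to 134292548, plus strand) was at 972, 869.7, and 1378 TPM in RvD1 replicates 1 to 3 and at 851, 974, and 818 TPM in vehicle replicates 1 to 3. It ranked between 63 and 198 of all genes. RvD1 replicate 3 was the highest library, and RvD1 replicates 1 and 2 lay within the vehicle range. Its log2 fold change was 0.20 (SE 0.16, 95% interval −0.17 to 0.56; edgeR unadjusted p = 0.250, adjusted p = 0.971), and −0.02 without RvD1 replicate 3.

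Myog over Pax7, which sets the differentiation factor against the stem cell factor, was 114, 186, and 301 in RvD1 replicates 1 to 3 and 128, 242, and 203 in vehicle replicates 1 to 3. The means of the log2 ratio were 7.54 ± 0.70 (SD, n = 3) with RvD1 and 7.53 ± 0.47 (SD, n = 3) with vehicle. Myog over Myod1 was 2.28 to 4.07 with RvD1 and 2.18 to 2.84 with vehicle. Of the summed TPM of the 4 bHLH factors, Myog took 61.6% to 70.7%, Myod1 16.7% to 28.4%, and Myf5 5.19% to 15.4% over the 6 libraries.

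Myf6 (ENSMUSG00000035923, chromosome 10, 107492853 to 107494737, minus strand) lies 6718 bases from Myf5 on the same strand, but was about as scarce as Pax3. It had 26, 22, and 7 expected counts in RvD1 replicates 1 to 3 and 10, 13, and 13 in vehicle replicates 1 to 3, which correspond to 1.68, 1.06, and 0.55 TPM and to 0.84, 0.97, and 0.91 TPM. The 7 counts of RvD1 replicate 3 have an exact 95% Poisson interval of 2.81 to 14.4 counts, which covers counting error only. Myf6 did not pass the test (log2 fold change 0.19, SE 0.48, 95% interval −0.89 to 1.28; edgeR adjusted p = 0.977), and the value was −0.20 without RvD1 replicate 1. Its interval was the widest of the 9.

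Of the 9 factors, Mef2a and Mef2d varied least between mice in TPM. Mef2a (ENSMUSG00000030557, chromosome 7, 67231163 to 67372858, minus strand) was the main Mef2 factor, with 76.6% to 79.8% of the Mef2 TPM. It was at 252, 251, and 271 TPM in RvD1 replicates 1 to 3 and at 215, 242, and 235 TPM in vehicle replicates 1 to 3. All 3 RvD1 values lay above the vehicle values in TPM, but the groups overlapped in CPM normalized by trimmed means (TMM), the scale of the test. The log2 fold change was 0.14 (SE 0.10, 95% interval −0.09 to 0.36; edgeR unadjusted p = 0.205, adjusted p = 0.971), and it stayed between 0.08 and 0.22 with any 1 library left out. The value of 0.22 was that without RvD1 replicate 1 (edgeR unadjusted p = 0.0153, adjusted p = 0.9675).

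Mef2d (ENSMUSG00000001419, chromosome 3, 88142372 to 88172086, plus strand) was at 51.5, 51.4, and 62.1 TPM in RvD1 replicates 1 to 3 and at 48.0, 47.9, and 41.8 TPM in vehicle replicates 1 to 3. It was the only 1 of the 9 whose groups did not overlap in TMM-normalized log2 CPM, and 9.62% of all genes tested parted the groups in this way. Mef2d had a log2 fold change of 0.13 (SE 0.09, 95% interval −0.07 to 0.33; edgeR unadjusted p = 0.170, adjusted p = 0.971). Both Mef2a and Mef2d overlap other annotated genes, Mef2a on the same strand with Gm44667 and Gm44668, and their expected counts are partly fractional, so some reads were divided between genes. On the other strand Mef2a overlaps Lysmd4 and Mef2d overlaps 1700113A16Rik, and while the Methods call the data single-stranded, the strand setting of the counting is not given in the sources used here.

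By adjusted p alone, the call for Mef2a turned on how many surrogate variables were removed, a number that the study does not state. The study reported no individual gene as significant after adjustment, and its calls also required a minimum fold change. That minimum was not applied here, and the Mef2a estimates below fall short of it. With the limma-voom steps of the study and 1 variable removed, the number estimated here, the log2 fold change was 0.19 for Mef2a (limma unadjusted p = 0.00292, adjusted p = 0.226) and 0.17 for Mef2d (limma unadjusted p = 0.0211, adjusted p = 0.383). With 2 removed, a setting added after earlier results were known, Mef2a passed the threshold (log2 fold change 0.18, limma adjusted p = 0.00947) and Mef2d missed it (0.16, adjusted p = 0.0567). That setting called 1727 of 26518 genes (6.51%), 983 of them higher with RvD1, and had 25.3% at an unadjusted p under 0.05. Removing 1 called 0, with 11.2% of genes at an unadjusted p under 0.05. Only the smaller removal thus called no gene, which is also the outcome that the study reports. Removal before the fit leaves the degrees of freedom of the test as if no variable had been estimated.

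Mef2c (ENSMUSG00000005583, chromosome 13, 83504034 to 83667080, plus strand) was at 24.6, 12.8, and 18.2 TPM in RvD1 replicates 1 to 3 and at 17.7, 13.4, and 19.2 TPM in vehicle replicates 1 to 3. In CPM, counts scaled for depth alone, the vehicle libraries were nearly equal, at 28.7, 28.1, and 28.2 CPM, while RvD1 libraries were at 36.6, 22.8, and 37.1 CPM. The highest and the lowest CPM were both in the RvD1 group. In edgeR the log2 fold change was 0.14 (SE 0.18, 95% interval −0.26 to 0.54; adjusted p = 0.971), and 0.33 without RvD1 replicate 2 (edgeR unadjusted p = 0.0223, adjusted p = 0.725). It was 0.05 with RvD1 replicate 1 left out and 0.02 with RvD1 replicate 3 left out.

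The step from CPM to TPM for Mef2c rests on its effective length, an average over transcripts weighted by their estimated share. Recovered from expected counts and FPKM, it was 2454, 2868, and 3408 bases in RvD1 replicates 1 to 3 and 2627, 3316, and 2301 bases in vehicle replicates 1 to 3. The 1.48-fold range was matched or exceeded by 3.22% of the 9772 genes with at least 100 counts in every library, whose median was 1.08-fold. The groups overlapped (exact permutation test, two-sided, p = 0.7, where 0.1 is the smallest p that 3 against 3 allows). Mef2c has 31 annotated transcripts of 332 to 6277 bases. Single-ended short reads divide reads among such transcripts only as an estimate.

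Effective length varied 1.14-fold for Mef2a, 1.15-fold for Mef2d, and 1.07-fold for Pax7. It was constant to within 1 base for Myf5, Myod1, and Myog, at 2014, 1792, and 1425 bases, since each has 1 annotated transcript. For Pax7, Mef2a, and Mef2d the exact permutation test gave p-values from 0.5 to 0.9. For Myf5, Myod1, and Myog it gave 0.2 to 0.3, which says nothing of a shift between transcripts because their length is fixed.

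**Figure D3:**
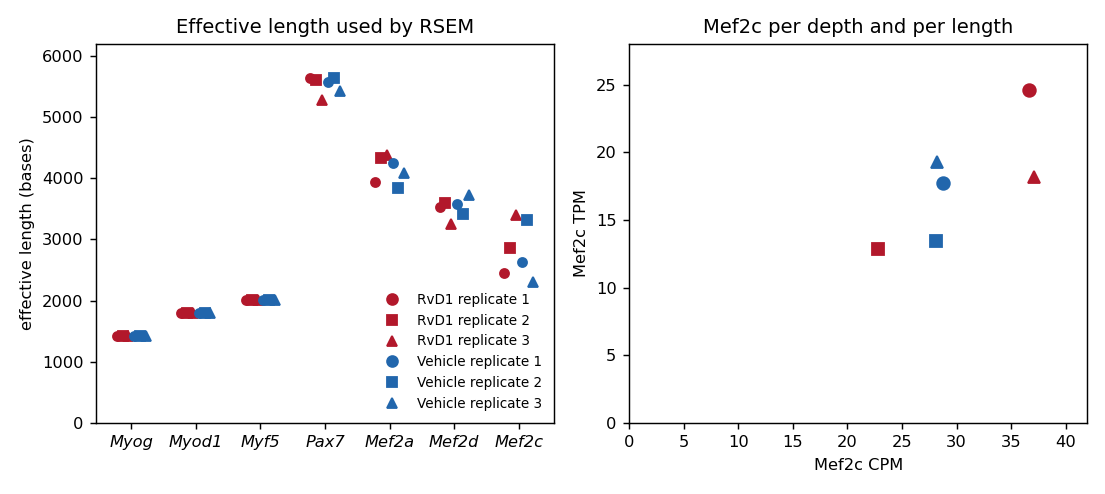
Left, effective length in bases used for 7 of the factors in each library, and right, TPM of Mef2c against its CPM, RvD1 in red and vehicle in blue. Mef2c ranges from 2301 to 3408 bases while Myf5, Myod1, and Myog do not vary, and the 3 vehicle libraries share about 28 CPM but differ from 13.4 to 19.2 TPM.

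Over all 9 factors, 0 had an adjusted p under 0.05 in edgeR and 0 had an unadjusted p under 0.05. Among the 14494 genes tested, 0% passed the adjusted threshold and 3.47% had an unadjusted p under 0.05. The log2 fold change was above 0 for 8 factors and below 0 for Myod1, with a median of 0.14, while 53.5% of all genes tested lay above 0 with a median of 0.01. With RvD1 replicate 1 left out, Pax7, Myf5, and Myf6 lay below 0 and Myod1 above it. By DESeq2, 0 of the 9 passed the adjusted threshold and 0 had an unadjusted p under 0.05, against 0% and 3.27% of all genes. The 95% intervals of all 9 included 0, and their upper bounds ran from 0.33 for Mef2d to 1.40 for Pax3.

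**Figure D4:**
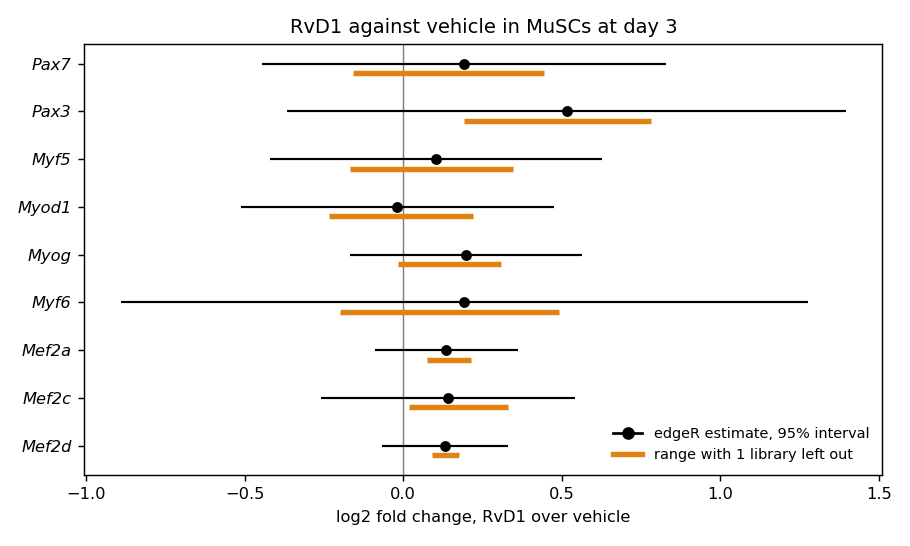
Log2 fold change of each factor, RvD1 over vehicle, from edgeR, with its 95% interval as a black line, and in orange the range of estimates when each library is left out in turn. Every interval crosses 0, and the orange range crosses 0 for Pax7, Myf5, Myod1, Myog, and Myf6.

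The spread between mice was also compared. The SD of TMM-normalized log2 CPM was larger with RvD1 than with vehicle for 9 of the 9 factors, and for 69.55% of all genes tested. For Myod1 it was 0.52 with RvD1 and 0.14 with vehicle, and for Myf5 0.56 and 0.13. In TPM, Mef2a went the other way, with an SD of 11.2 with RvD1 and 14.1 with vehicle. Without RvD1 replicate 1, a choice made after seeing the data, 7 of 9 factors and 45.52% of all genes had the larger SD with RvD1. With RvD1 replicate 3 left out it was 7 of 9 and 61.54%, and with RvD1 replicate 2 left out 9 of 9 and 63.93%.

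Relations between factors were computed for 6 pairs over the 6 libraries on TMM-normalized log2 CPM. Pax7 and Myod1 had a Pearson r of −0.913 (exact permutation test over all pairings, two-sided, p = 0.0125, Benjamini-Hochberg adjusted p = 0.075) and a Spearman rho of −0.886 (exact permutation p = 0.0333, adjusted p = 0.1). With RvD1 replicate 1 and vehicle replicate 1 left out, the libraries farthest from the median of Pax7, r was −0.315. This omission narrows the range of Pax7 by design, so it cannot show what the relation rests on. With RvD1 replicate 1 alone left out r was −0.754, and with vehicle replicate 1 alone left out it was −0.9485. Pax7 and Myf5 had an r of 0.801 (exact permutation p = 0.0417, adjusted p = 0.125) and a rho of 0.886 (exact permutation p = 0.0333, adjusted p = 0.1). Without both RvD1 replicate 1 and vehicle replicate 1, r was 0.657.

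For the other pairs, exact permutation p-values of r ran from 0.075 to 0.465. Mef2a and Mef2d had an r of 0.783 (exact permutation p = 0.075, adjusted p = 0.150) and a rho of 0.486 (exact permutation p = 0.356, adjusted p = 0.533), and an r of −0.783 without RvD1 replicates 2 and 3. With 1 library left out, r for this pair ran from 0.543, without RvD1 replicate 3, to 0.9575, without vehicle replicate 3. Mef2c and Myog had an r of 0.634 (exact permutation p = 0.178, adjusted p = 0.267) and a rho of 0.714 (exact permutation p = 0.136, adjusted p = 0.272), with an r of 0.118 without RvD1 replicates 2 and 3. Myod1 and Myog had an r of 0.440 (exact permutation p = 0.346, adjusted p = 0.415) and a rho of 0.314 (exact permutation p = 0.564, adjusted p = 0.677), with an r of −0.02 without RvD1 replicates 1 and 3. Pax7 and Myog had an r of −0.386 (exact permutation p = 0.465, adjusted p = 0.465) and a rho of −0.200 (exact permutation p = 0.714, adjusted p = 0.714), with an r of −0.387 without RvD1 replicate 1 and vehicle replicate 1. Each omission of 2 libraries took those farthest from the median of the first gene of the pair. It narrows the range of that gene by design, so it cannot show what a relation rests on. None of the 6 pairs passed the adjusted threshold, by r or by rho. Within the groups of 3 libraries no correlation was computed.

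The genes whose levels ran most like 3 of the factors over the 6 libraries were sought among the 14494 genes tested, as a description. For Pax7 they were Ccdc114 (r = 0.995), Lgr5 (r = 0.995), and Dync2h1 (r = 0.993), and 685 genes had an r above 0.9. For Myod1 they were Heatr3 (r = 0.999), Shc2 (r = 0.998), and Cox15 (r = 0.996), and 912 genes had an r above 0.9. For Myog they were Snx19 (r = 0.987), Dhx16 (r = 0.981), and Ndor1 (r = 0.976), and 93 genes had an r above 0.9. All of these points share the same libraries and their depths, and with 6 points many genes reach such values.

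The partners and inhibitors of the bHLH factors were examined next. Of 15 such genes 14 were tested, 0 passed the adjusted threshold, and the median log2 fold change was 0.03. At an unadjusted p under 0.05 in edgeR there was 1 of the 14, against 3.47% of all genes tested. The most abundant were Id3, Id2, and Id1, at means of 670.2, 345, and 178 TPM over the 6 libraries, whose products bind E proteins and keep them from the myogenic factors. Id1 was at 159.6, 167, and 156 TPM in RvD1 replicates 1 to 3 and at 194, 224, and 169 TPM in vehicle replicates 1 to 3. All 3 RvD1 values lay below the vehicle values. Its log2 fold change was −0.37 (SE 0.12, edgeR unadjusted p = 0.0138, adjusted p = 0.971), and −0.25 without vehicle replicate 2 (edgeR unadjusted p = 0.0756). The groups also parted for Id2 in TMM-normalized log2 CPM (log2 fold change −0.08, SE 0.08, edgeR adjusted p = 0.971), though not in TPM. On that scale Id1 and Id2 were 2 of the 14 genes tested that parted the groups, against 9.62% of all genes tested. Tcf4, an E protein, was at 114 TPM with a log2 fold change of 0.05 (SE 0.12), and Bhlhe41, a repressor of bHLH activity, had 0.29 (SE 0.17, edgeR unadjusted p = 0.117).

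Of 20 upstream regulators 18 were tested, 10 with a log2 fold change above 0 and 8 below, with a median of 0.03 and 0 at an unadjusted p under 0.05. Eya2, a transcriptional coactivator gene, was at 14.7 TPM in RvD1 replicate 1 and at 4.65 to 7.05 TPM in the other libraries (log2 fold change 0.59, SE 0.39, edgeR unadjusted p = 0.159). Srf, which encodes serum response factor, had the smallest p of the list (log2 fold change −0.24, SE 0.12, edgeR unadjusted p = 0.0778, adjusted p = 0.971). Nfix had a log2 fold change of 0.21 (SE 0.18) and Klf5 of −0.04 (SE 0.17).

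Of 18 cofactors and regulators of Mef2 and MyoD 17 were tested, with a median log2 fold change of 0.04 and 0 at an unadjusted p under 0.05. Hdac9, a class IIa histone deacetylase that represses Mef2 proteins, had the smallest p (log2 fold change 0.74, SE 0.33, edgeR unadjusted p = 0.0514, adjusted p = 0.971). It was at 1.05, 0.62, and 0.98 TPM with RvD1 and at 0.43, 0.73, and 0.65 TPM with vehicle, so its groups overlapped in TPM. They did not overlap in TMM-normalized log2 CPM, as for 9.62% of all genes tested. The 4 most abundant cofactors lay close to 0. The log2 fold change was −0.08 (SE 0.15) for Carm1, 0.02 (SE 0.09) for Smarcd3, 0.02 (SE 0.11) for Vgll2, and −0.01 (SE 0.10) for the kinase gene Mapk14. Ncoa2, a coactivator gene at a mean of 11.2 TPM, had the next smallest p after Hdac9 (log2 fold change 0.24, SE 0.15, edgeR unadjusted p = 0.148).

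All 30 differentiation targets of these factors were tested, 14 with a log2 fold change above 0 and 16 below, with a median of −0.01 and 0 at an unadjusted p under 0.05. The most abundant were the cell cycle inhibitors Cdkn1a (725 TPM over the 6 libraries) and Cdkn1c (589 TPM), the intermediate filament gene Des (592 TPM), and the acetylcholine receptor subunit gene Chrna1 (509.9 TPM). Cdkn1a had the smallest p of the list (log2 fold change −0.19, SE 0.13, edgeR unadjusted p = 0.168, adjusted p = 0.971), followed by Ttn, which encodes titin (0.18, SE 0.12, edgeR unadjusted p = 0.171). The summed TPM of the list was 5481 to 7822 with RvD1 and 6012 to 6851 with vehicle, with RvD1 replicate 3 the highest, as for Myog, and RvD1 replicate 2 the lowest.

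**Figure D5:**
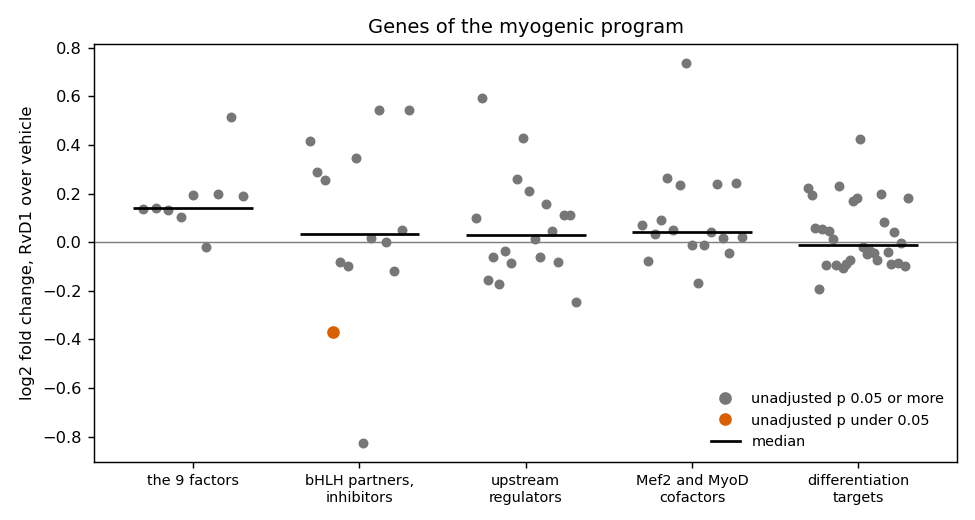
Log2 fold change, RvD1 over vehicle, of each tested gene in the set of 9 factors and in 4 related lists, 1 point per gene with the list median as a bar; the orange point is Id1, with an unadjusted p under 0.05. The medians are 0.14, 0.03, 0.03, 0.04, and −0.01 from left to right.

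The labeled cell type was checked against its markers. Itgb1, which encodes β1-integrin, was at 444 to 524 TPM and Itga7, its partner in MuSCs, at 458 to 586 TPM. Cdh15, which encodes M-cadherin, was at 300.3 to 423 TPM. Cxcr4, the other gene of the positive gate, was at 11.7 to 29.8 TPM, and Calcr, a marker of quiescent MuSCs, at 0.82 to 5.8 TPM. Ly6a, which encodes Sca-1 and was selected against, was at 17.3 to 39.7 TPM, and Ptprc (CD45) at 0.08 to 1.13 TPM. All 15 MuSC markers were tested, with a median log2 fold change of 0.15 and 0 at an unadjusted p under 0.05. Of 20 leukocyte markers, S100a9 and Ly6g were at 0 in every library and 14 were tested, 12 of them with a log2 fold change below 0, and the median was −0.39. At an unadjusted p under 0.05 there were 2 of the 14, against 3.47% of all genes. They were Lyz2 (log2 fold change −1.06, edgeR adjusted p = 0.971) and Tyrobp (−1.04, edgeR adjusted p = 0.971). The summed TPM of the leukocyte markers was 44.4 to 68.2 with RvD1 and 56.0 to 96.6 with vehicle. Of 10 endothelial markers, all tested, 8 had a log2 fold change below 0, with a median of −0.90, and 0 had an unadjusted p under 0.05. Their sum was 11.8 to 33.5 TPM.

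Of 10 markers of fibro-adipogenic progenitors, 9 were tested, and the median log2 fold change was 0.44. It was above 0 for 8 of them, against 53.5% of all genes tested. Of all genes tested 3.47% had an unadjusted p under 0.05 in edgeR, and of these markers Ly6a, the 1 below 0 (−0.62), and Cd248 (0.66) did. Each had an edgeR adjusted p of 0.971. The summed TPM of the 10 markers was 2292, 1054, and 1513 in RvD1 replicates 1 to 3 and 1189 to 1332 with vehicle. Of these markers the most abundant was Col3a1, a fibrillar collagen gene, at a mean of 529.6 TPM. It was followed by Col1a2 (407 TPM), Dcn (257 TPM), and Col1a1 (168 TPM), and with these it made up most of each sum. All 9 mural and glial markers had a log2 fold change above 0, with a median of 0.45, and Pdgfrb (0.66, edgeR adjusted p = 0.971) was the 1 with an unadjusted p under 0.05. The sum of these markers was 105, 50.4, and 73.3 TPM in RvD1 replicates 1 to 3 and 49.0 to 51.9 TPM with vehicle. Mature fiber markers, of which 8 of 10 were tested, summed to 444 to 629 TPM with RvD1 and 441 to 566 TPM with vehicle. Actn3 and Atp2a1, at means of 310.6 and 187 TPM over the 6 libraries, made up most of these sums. Ckm and Myh1 were at means of 17.7 and 8.1 TPM, and Myh4 and Myh7 at 0.66 and 0.44 TPM. All 10 proliferation markers had a log2 fold change below 0, with a median of −0.11 and 0 at an unadjusted p under 0.05. Their summed TPM was 1633, 2139, and 2344 in RvD1 replicates 1 to 3 and 2069 to 2248 with vehicle. Only RvD1 replicate 1 thus lay below the vehicle range. The part of the marker genes in the values of the 9 factors was not tested.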

How the data were processed

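RNA-Seq was performed on sorted MuSCs of 3 RvD1-treated and 3 vehicle-treated mice. The authors aligned 76-bp single-ended reads to mm10 with STAR 2.5.0a, according to the submitters' processing notes, and quantified genes with RSEM. Its version and the annotation release are not given in the sources used here. The deposited expected counts are estimated counts per gene, not scaled for depth. The deposited TPM were scaled by the authors for effective length and to a common total, and the deposited FPKM for effective length and depth. The labels give 1 ng of RNA as input and list CD31 among the markers selected against, whereas the Methods give 10 ng and no CD31. Totals were 16148026 to 28149176 expected counts per library, at which 3 counts correspond to 0.107 to 0.186 CPM. Reads carry no molecular identifiers, so such limits and Poisson intervals cover counting error only. A stray header line was removed, and 22860 genes had 0 counts in every library.

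Expected counts were rounded and tested with edgeR 4.0.16 in R 4.3.3 (TMM factors, filterByExpr by group, quasi-likelihood test without robust estimation), with Benjamini-Hochberg adjustment over the 14494 genes that passed the filter and a threshold of 0.05. SE is the fold change over the root of the test's F. Each mouse is 1 replicate. CPM used library totals, and correlations and overlap of groups used TMM-normalized log2 CPM with a prior count of 2. The study's limma-voom steps with surrogate variables removed (limma 3.58.1, sva 3.50.0) were an alternative, as were DESeq2 1.42.0, other scalings and filters, robust estimation, TPM with a pseudocount of 1 or 0.1, a replicate block, and omission of each library. On simulated data, edgeR with and without the replicate block, DESeq2, and limma-voom with and without the estimated number of surrogate variables were tested. The other scalings and filters, robust estimation, and the removal of 2 surrogate variables were not tested in this way.

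Positions come from GENCODE M21 on GRCm38, and promoters from RefSeq on GRCm38.p6. Genes named besides the 9 factors were picked by a rule. It took of each list the 4 with the largest mean TPM and the 2 with the smallest unadjusted p, and for Pax7, Myod1, and Myog the 3 with the largest Pearson r. Of the lists of cell type markers only some of the genes under this rule are named, and none of the endothelial or proliferation markers. A gene that this rule names is not reported here. S100a9, Ly6g, Cxcr4, Calcr, Ptprc, Pdgfra, Pi16, Dpt, and Lum were singled out after their values were seen. The factors and lists were chosen with earlier results of these data known, so no list was tested as a set and no p was adjusted over a list alone.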

Additional observations from a re-analysis of the deposited data

How the results depend on the processing

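Of 169 log2 fold changes of the 9 factors under 19 alternatives, 157 kept their direction and side of the threshold, 11 changed sign, and 1, Mef2a, passed the threshold. None of those that changed sign passed the adjusted threshold. Without RvD1 replicate 1, Pax7 was at −0.16, Myf5 at −0.17, Myf6 at −0.20, and Myod1 at 0.22, and without RvD1 replicate 3 Myog was at −0.016. Myod1 was also above 0 with library totals only (0.0119), on log2(TPM + 1) (0.0099) and log2(TPM + 0.1) (0.0098), without vehicle replicate 3 (0.05), and with 1 or 2 surrogate variables removed (0.0574 and 0.0373). With 1 library left out, estimates ranged from −0.16 to 0.44 for Pax7, −0.17 to 0.35 for Myf5, −0.23 to 0.22 for Myod1, −0.016 to 0.31 for Myog, −0.20 to 0.49 for Myf6, and 0.02 to 0.33 for Mef2c. The number of genes called among all genes was 12 without a count filter (5 higher, 7 lower), 0 to 1 with 1 library left out, the 1 arising without RvD1 replicate 3, and 1727 with 2 surrogate variables removed, where 1 of the 9 factors was called. It was 0 under the other alternatives run, where the smallest adjusted p was 0.135 for DESeq2 and 0.109 for limma with 1 surrogate variable removed. With the filter at 10 CPM in 3 libraries, Pax3 and Myf6 were not tested. With 1 library left out, the correlation of Myod1 and Myog was lowest without RvD1 replicate 3, at −0.166, and highest at 0.727, without RvD1 replicate 1. The cause of these shifts was not tested.

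The labels number the mice 1 to 3 in both groups without saying that they were paired, and deviations from the group means of same-numbered libraries correlated across genes at 0.310, −0.0007, and 0.126. Their mean was 0.145, against a mean of −0.073 for libraries of different numbers. The deviations are taken within groups, so these means depend on each other, and a pairing was not tested. With a replicate block in edgeR, 0 genes and 0 of the 9 factors were called, with smallest adjusted p-values of 0.791 and 0.806, and 896 genes had an unadjusted p under 0.05. Myf6 and Pax3 had under 100 counts in every library, and 3 mice per group limit all of the intervals.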
